A study of Mus musculus with 6 samples.

Results

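A set of 10 genes that move cholesterol across membranes, store it as ester or sense it was followed in the mouse colon: *Npc1l1* and *Scarb1* for uptake, *Soat1* and *Soat2* for esterification, *Abcg5*, *Abcg8*, *Abca1* and *Abcg1* for efflux, and *Nr1h2* and *Nr1h3*, which encode the liver X receptors (LXR). They were chosen by name and role, with earlier results of these data known. All 10 were among the 24517 genes with a count and among the 16347 that passed the filter on low counts. RNA sequencing had been run on colon of 3 Nsd2fl/fl control and 3 Nsd2ΔIE libraries (spelled NSD2fl/fl and NSD2∆IE in the labels). Every animal, controls included, had eaten HFCD, a diet rich in fat and cholesterol, over a period that the labels put at 16 weeks, and no library came from animals on another diet. Both groups carried the floxed *Nsd2* allele, and in Nsd2ΔIE the histone methyltransferase NSD2 was deleted by Villin-Cre, which acts in the intestinal epithelium and leaves the gene intact in the muscle, nerve, blood vessel and immune cells of the same tissue. The study's methods give a C57BL/6J background and male littermates, but the sex-linked genes described below did not read as male in Nsd2ΔIE. The labels give no age, while the methods state one for the start of the diet and a longer feeding period than the labels do. The labels do not say whether the libraries of a group came from separate animals. The p-values therefore measure the spread between these samples, part of which may be technical. Because the tissue is a mixture, fewer cells of a type and less RNA per cell cannot be told apart in any value below.

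Dietary cholesterol enters the absorptive cell through NPC1L1 at the brush border, and the ABCG5/ABCG8 pair returns sterols, above all those of plants, to the gut lumen. Cholesterol kept in the cell is joined to a fatty acid by the acyltransferases SOAT1 and SOAT2, while ABCA1 and ABCG1 hand it to lipoprotein particles on the blood side. Oxidised sterols bind LXR, which pairs with RXR and switches on *Abca1*, *Abcg1*, *Abcg5* and *Abcg8*. Most of this traffic is known from the small intestine, and the colon absorbs little cholesterol.

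*Abcg5* and *Abcg8* are read in opposite directions, and the proteins work only as a pair. From the *Abcg8* start used here they lie head to head, each read away from the other. Their joint start region is shown because these were the members that differed most between the groups. The RefSeq starts used are chr17:84683011 for *Abcg5* on the minus strand and chr17:84683121 for *Abcg8* on the plus strand (GRCm38.p6). Another annotated start of *Abcg8*, chr17:84676302, lies inside *Abcg5*, so that the annotated genes overlap. The stretch between the starts used is 109 bases long. It is printed on the plus strand, chr17:84683012-84683120, with capitals marking TTATCT, the GATA motif AGATAA read on the other strand.

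Abcg5-Abcg8: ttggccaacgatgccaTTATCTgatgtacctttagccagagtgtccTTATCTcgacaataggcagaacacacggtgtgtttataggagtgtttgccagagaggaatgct

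The GATA motif was looked for after this sequence had been seen. The start windows (250 bases before to 50 after a RefSeq start) of *Abcg5* and of *Abcg8* at chr17:84683121 overlap by 209 bases. They hold AGATAA at the same 3 places, counting both strands. The window of the other *Abcg8* start, at chr17:84676302, held 0 matches. One match or more stands in 11.2% of all 32851 mouse start windows of that length, and 3 or more in 0.107%. The AGGTCA hexamer bound by nuclear receptors, found in 16.3% of all windows, stood in the window of *Npc1l1* alone among the 7 members with a window. No member window held the paired LXR letters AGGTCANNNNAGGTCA, even with 2 of the 12 fixed letters changed, against 3.02% of all windows. The motifs CAAGGTCA, which contains that hexamer and is bound by NR5A2 (1.56% of all windows), and CAAAGTCCA, bound by HNF4 (0.475%), were not in any of these windows either. Such matches describe letters in a window and say nothing about binding. No start window was available for *Scarb1*, *Soat2* and *Abcg1*. The windows of *Nr1h3*, chr2:91194986-91195285 and chr2:91195067-91195366, lay inside the gene. Its outermost RefSeq start, chr2:91202829 on the minus strand, had no window, so the letters there were not searched.

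Library totals lay between 38041832 and 38604680 counts. *Nsd2* itself, at 47.8, 59.1 and 68.9 CPM (counts relative to the library total, adjusted by TMM factors) in Nsd2fl/fl 1, 2 and 3, was at 24.5, 23.1 and 27.5 CPM in Nsd2ΔIE 1, 2 and 3. The groups were apart, and the log2 fold change was -1.23 (SE 0.159, edgeR adjusted p = 0.302, DESeq2 adjusted p = 1.17e-06). Even the targeted gene thus did not reach an edgeR adjusted p under 0.05. Values of other genes are given in the same order of replicates. The 5 genes with an edgeR adjusted p under 0.05 in the whole table, 0.0306% of the genes tested, were all sex-linked: *Xist* was at or below 0.104 CPM in every Nsd2fl/fl library and between 535.3 and 611.4 CPM in every Nsd2ΔIE library, and 4 Y-linked genes ran the opposite way. This is the pattern of female Nsd2ΔIE and male Nsd2fl/fl libraries, whereas the study's methods name male littermates. Genotype and this sex pattern cannot be told apart. Past the threshold used in the study (unadjusted p under 0.05 and a log2 fold change beyond 0.322 in size), 8.05% of tested genes were higher and 2.21% lower in Nsd2ΔIE. Ranges that did not overlap between the groups were found for 11.4% of tested genes higher and 7.28% lower. The libraries also differed within each group. *Hoxb13*, a homeobox gene of the most distal gut, stood at 364.9, 0.706 and 340.5 CPM in Nsd2fl/fl 1, 2 and 3 and at 310.0, 4.97 and 26.2 CPM in Nsd2ΔIE 1, 2 and 3. Nsd2fl/fl 2 and Nsd2ΔIE 2 and 3, the 3 libraries under 30 CPM, were the same ones that the first principal component (51.0% of the variance) set apart from the rest. They are called the low-*Hoxb13* libraries in what follows.

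On a scale that allows genes to be compared, FPKM (counts divided by gene length and by the library total), *Nr1h2* was the highest member with a median of 26.1 FPKM over the 6 libraries, and *Npc1l1* the lowest with 0.0626 FPKM. In between came *Nr1h3* (11.2), *Soat1* (10.8), *Scarb1* (7.43), *Abca1* (2.87), *Abcg1* (1.80), *Abcg5* (1.71), *Soat2* (0.688) and *Abcg8* (0.484), all as median FPKM. Of the neighbours in this order, only *Nr1h2* against *Nr1h3* and *Scarb1* against *Abca1* had ranges that did not overlap. The lengths implied by FPKM were 4808 bases for *Soat1* and 4137 for *Scarb1*, where GENCODE vM21 gives 9791 and 8500 exonic bases. The order of genes, their overlaps and the FPKM ratios between genes therefore depend on the annotation behind the lengths, which is not given. Some pairs whose ranges overlapped still kept their order within every library, such as *Soat1* above *Scarb1* and *Abcg8* above *Npc1l1* in 6 of 6. *Nr1h3* was above *Soat1*, *Abcg1* above *Abcg5* and *Soat2* above *Abcg8* in 3 of 6 libraries each. *Abcg5* ran from 0.626 to 8.31 FPKM, a range that took in the medians of *Scarb1*, *Abca1*, *Abcg1* and *Soat2*.

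**Figure D1:**
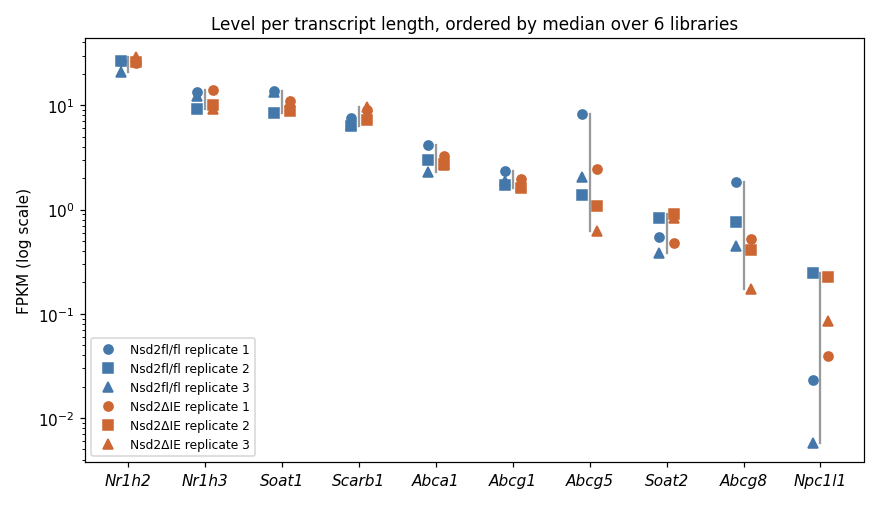
FPKM of the 10 genes on a log axis, ordered by median, with 1 point per library (blue, Nsd2fl/fl; orange, Nsd2ΔIE; circle, square and triangle for replicates 1, 2 and 3) and a grey line from lowest to highest. *Nr1h2* sits at the top with a median of 26.1 FPKM and *Npc1l1* at the bottom with 0.0626 FPKM, and the lines of *Abcg5*, *Abcg8* and *Npc1l1* are the longest.

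Between the groups, 3 of the 10 genes were fitted higher in Nsd2ΔIE and 7 lower (4 and 6 with library totals alone), with a median log2 fold change of -0.20, beside -0.04 over all genes tested. No member reached an edgeR adjusted p under 0.05 (0 also with DESeq2 and with limma-voom), and 1 had an unadjusted p under 0.05. That gene, *Abcg8*, was the 1 member past the study's threshold on the lower side, against a background of 2.21%, and 0 members passed it on the higher side, against 8.05%. No member had group ranges that did not overlap. The largest fitted differences were those of the sterol exporters *Abcg5* and *Abcg8*, both near 3-fold lower by the fit, which went to -0.46 and -0.87 on the log2 scale when Nsd2fl/fl 1 was left out.

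**Figure D2:**
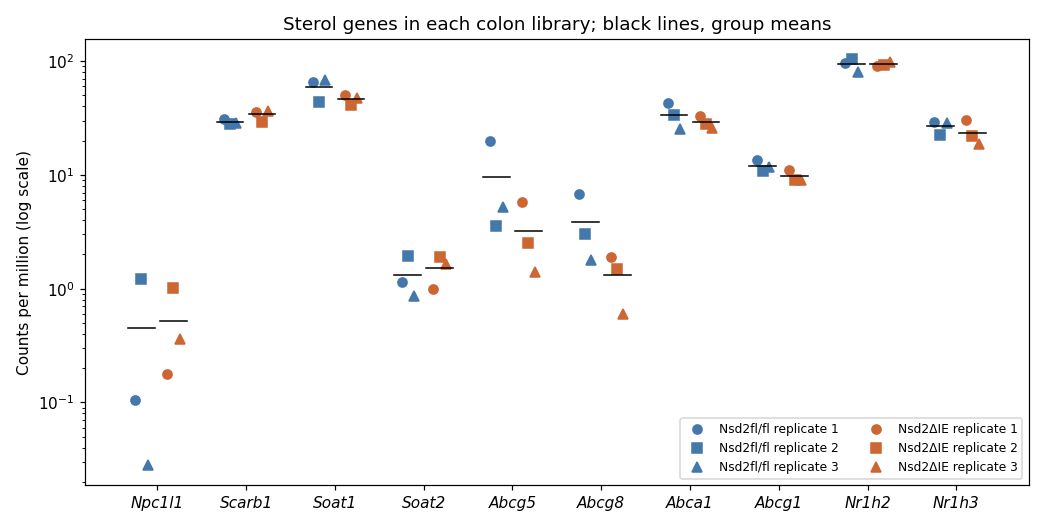
TMM-scaled CPM of the 10 genes on a log axis, with 1 point per library (colours and symbols by group and replicate as in the legend) and a black line at each group mean. The points of the groups interleave for every gene, and Nsd2fl/fl 1 stands above all other libraries for *Abcg5* (19.8 CPM) and *Abcg8* (6.80 CPM).

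*Npc1l1*, the brush-border cholesterol importer on chr11:6211013-6230143, was close to the detection limit. Nsd2fl/fl 1, 2 and 3 held 4, 43 and 1 counts (0.104, 1.22 and 0.0281 CPM). Nsd2ΔIE 1, 2 and 3 held 7, 40 and 15 counts (0.177, 1.01 and 0.362 CPM). The 3 low-*Hoxb13* libraries held more than the other 3, and the range of Nsd2ΔIE lay inside that of Nsd2fl/fl. Nsd2fl/fl 3 was under the floor of 3 counts (0.0788 CPM). The fitted log2 fold change of 0.20 (SE 1.20) had a 95% interval from -2.66 to 3.07 (edgeR adjusted p = 0.961), so neither a several-fold rise nor a several-fold drop was outside it. Leaving out Nsd2fl/fl 2 gave 2.88, past the study's threshold on the higher side, while leaving out Nsd2ΔIE 2 gave -0.72. Between libraries on the same side of the *Hoxb13* split, the difference in log2 CPM was 1.03 among the high and -0.94 among the low libraries, and the part of colon position in these values was not tested.

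The genes whose mean-centred log2 CPM tracked *Npc1l1* most closely over the 6 libraries, out of 13278 compared, were *Clec2e*, a C-type lectin gene (root-mean-square difference 0.124), and *Phospho1*, a phosphatase gene (0.161). *Clec2e* ran at 12.3, 102.9 and 5.90 CPM in Nsd2fl/fl and at 22.4, 89.4 and 35.5 CPM in Nsd2ΔIE. The same libraries were also high for *Alpi*, the brush-border alkaline phosphatase of enterocytes, at 2.86, 37.6 and 1.26 CPM in Nsd2fl/fl and 6.79, 45.5 and 27.3 CPM in Nsd2ΔIE. They were high for the brush-border disaccharidase *Sis* as well, at 0.909, 25.2 and 0.0562 CPM in Nsd2fl/fl and 0.505, 47.0 and 8.27 CPM in Nsd2ΔIE. *Lct* and *Apoa4*, which define small-intestinal enterocytes more strictly, were at or below 0.0964 and 0.227 CPM in all 6 libraries. *Fabp1* and *Apoa1* were low too, but highest in the low-*Hoxb13* libraries. *Fabp1* was at 0.026, 0.763 and 0.0842 CPM in Nsd2fl/fl and 0.328, 1.03 and 1.23 CPM in Nsd2ΔIE. *Apoa1* was at 0.026, 0.763 and 0 CPM in Nsd2fl/fl and 0.0757, 0.757 and 0.169 CPM in Nsd2ΔIE. *Slc5a1*, the sodium-glucose cotransporter and by far the most abundant of the list, did not follow, with 192.1, 191.8 and 152.1 CPM in Nsd2fl/fl and 157.6, 159.9 and 122.1 CPM in Nsd2ΔIE. Of the 7 enterocyte markers, 4 passed the filter on low counts, and the summed level, most of it *Slc5a1*, was 153.7 to 256.3 CPM in Nsd2fl/fl and 159.2 to 254.4 CPM in Nsd2ΔIE.

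*Scarb1* (chr5:125277087-125341094) encodes SR-BI, the receptor that takes cholesterol ester from HDL and sits on both faces of the enterocyte. It was at 30.9, 28.2 and 28.7 CPM in Nsd2fl/fl and at 35.9, 29.4 and 36.8 CPM in Nsd2ΔIE. Nsd2ΔIE 1 and 3 were above every control and Nsd2ΔIE 2 fell among them. The mean went from 29.3 ± 1.45 to 34.0 ± 4.05 CPM (SD, n = 3 libraries a group), a log2 fold change of 0.22 (SE 0.124, 95% interval -0.08 to 0.51) with an edgeR adjusted p of 0.578. It was the steadiest of the higher members, between 0.16 and 0.34 over the 16 alternative analyses.

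The esterification genes pointed in different directions. *Soat1* (chr1:156424525-156474331), the widely expressed acyltransferase, was at 65.5, 43.7 and 68.3 CPM in Nsd2fl/fl and at 51.0, 41.4 and 47.5 CPM in Nsd2ΔIE. Nsd2fl/fl 1 and 3 stood above the rest, and Nsd2fl/fl 2 lay inside the Nsd2ΔIE range. The log2 fold change was -0.34 (SE 0.189, 95% interval -0.79 to 0.10, edgeR adjusted p = 0.559). Without Nsd2fl/fl 2 it was -0.52, past the study's threshold. Within the *Hoxb13* split the difference was -0.39 in log2 CPM among the high libraries and 0.02 among the low ones.

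*Soat2* (chr15:102150526-102163469), the acyltransferase of enterocytes and hepatocytes that works on newly absorbed cholesterol, was at 1.14, 1.92 and 0.871 CPM in Nsd2fl/fl and at 0.984, 1.89 and 1.64 CPM in Nsd2ΔIE, from 31 to 75 counts a library. As for *Npc1l1*, the 3 low-*Hoxb13* libraries were the 3 highest. The fitted log2 fold change of 0.20 (SE 0.418, 95% interval -0.80 to 1.19, edgeR adjusted p = 0.878) turned to -0.02 without Nsd2fl/fl 3. In FPKM, *Soat1* exceeded *Soat2* by 25.3, 10.1 and 34.7 times in Nsd2fl/fl and by 22.9, 9.67 and 12.8 times in Nsd2ΔIE. The log2 of this ratio differed by -0.55 between the groups (exact permutation test, two-sided, p = 0.40, where 0.10 is the smallest p that 3 against 3 allows).

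The lumenal exporters *Abcg5* (chr17:84658234-84683011) and *Abcg8* (chr17:84676302-84700333) carried the largest differences. *Abcg5* was at 19.8, 3.56 and 5.28 CPM in Nsd2fl/fl and at 5.73, 2.52 and 1.40 CPM in Nsd2ΔIE. Nsd2fl/fl 1, with 762 counts, held over 3 times as many as any other library, and Nsd2ΔIE 1 was above Nsd2fl/fl 2 and 3. The means were 9.54 ± 8.92 and 3.22 ± 2.25 CPM (SD, n = 3), and the log2 fold change was -1.57 (SE 0.773, 95% interval -3.41 to 0.27, edgeR adjusted p = 0.514). Without Nsd2fl/fl 1 it was -0.46. It passed the study's threshold without Nsd2fl/fl 2 (-1.97) and without Nsd2ΔIE 1 (-2.29), and also with DESeq2 (-1.57) and limma-voom (-1.79).

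*Abcg8* was at 6.80, 3.05 and 1.80 CPM in Nsd2fl/fl and at 1.89, 1.49 and 0.603 CPM in Nsd2ΔIE, or 262, 108 and 64 against 75, 59 and 25 counts. Nsd2fl/fl 1 was again the highest library and Nsd2ΔIE 3 the lowest, and the groups overlapped only in that Nsd2ΔIE 1 stood just above Nsd2fl/fl 3. The means were 3.88 ± 2.60 and 1.33 ± 0.66 CPM, and the log2 fold change was -1.55 (SE 0.608, 95% interval -2.996 to -0.10, edgeR adjusted p = 0.424). The call at the study's threshold was lost without Nsd2fl/fl 1 (-0.87), without Nsd2ΔIE 2 (-1.64) and without Nsd2ΔIE 3 (-1.20), and also with scaling to library totals alone (-1.46). With DESeq2 the smallest adjusted p of the pair was 0.133 for *Abcg8* and 0.230 for *Abcg5*. Among the high-*Hoxb13* libraries Nsd2ΔIE was lower by a log2 CPM difference of -0.83 for *Abcg5* and -0.87 for *Abcg8*. Among the low ones the differences were -0.90 and -1.63.

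**Figure D3:**
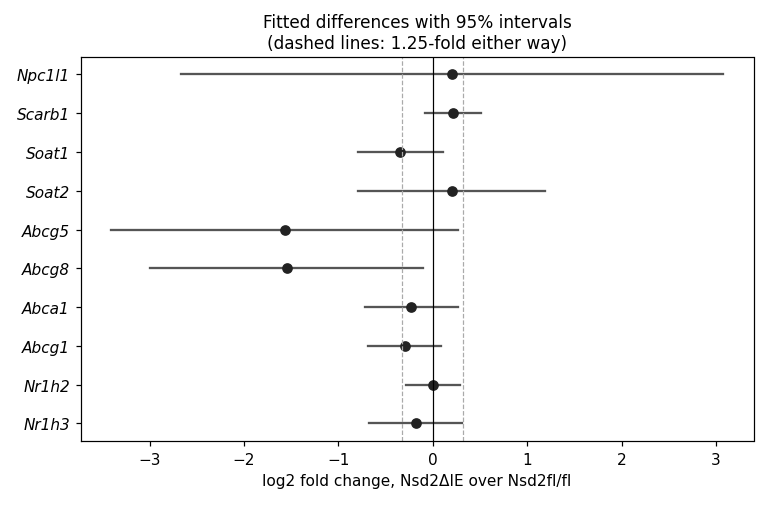
Fitted log2 fold change of Nsd2ΔIE over Nsd2fl/fl for the 10 genes (points) with 95% intervals (lines), and dashed lines at the study's fold limit (0.322 either way). *Abcg8*, at -1.55, is the only gene whose interval stays on one side of 0, and the interval of *Npc1l1* runs from -2.66 to 3.07.

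Both genes were highest in Nsd2fl/fl 1 and lowest in Nsd2ΔIE 3, but the other libraries did not keep 1 order, and in Nsd2fl/fl 2, Nsd2fl/fl 3 and Nsd2ΔIE 1 the pair lay on opposite sides of their own means. In FPKM *Abcg5* exceeded *Abcg8* by 4.52, 1.81 and 4.57 times in Nsd2fl/fl and by 4.71, 2.64 and 3.61 times in Nsd2ΔIE. The groups overlapped, with a difference of 0.09 in the log2 ratio (exact permutation test, two-sided, p = 0.80). Among 13277 genes, *Abcg8* was the second closest to *Abcg5* by mean-centred log2 CPM (root-mean-square difference 0.4995), and *Abcg5* was rank 3 for *Abcg8*. *Pkhd1*, the gene of the ciliary protein fibrocystin, was first for both (0.486 and 0.347), and the amino acid transporter gene *Slc6a20a* was second for *Abcg8* (0.431). *Pkhd1* was at 4.49, 2.06 and 1.91 CPM in Nsd2fl/fl and at 1.87, 1.21 and 0.795 CPM in Nsd2ΔIE, again highest in Nsd2fl/fl 1 and lowest in Nsd2ΔIE 3. The exons of *Abcg5* and *Abcg8* overlap by 82 bases on opposite strands, 3.02% and 2.19% of their exonic length, and whether reads were assigned by strand is not stated.

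The exporters on the blood side differed less. *Abca1* (chr4:53030787-53159895), which loads lipid-poor apolipoprotein A-I, was at 42.6, 33.7 and 25.4 CPM in Nsd2fl/fl and at 33.2, 28.0 and 25.7 CPM in Nsd2ΔIE. The whole Nsd2ΔIE range fell inside that of the controls, and the log2 fold change was -0.23 (SE 0.207, 95% interval -0.72 to 0.26, edgeR adjusted p = 0.717). *Abcg1* (chr17:31057675-31117988), which passes cholesterol to HDL, was at 13.5, 10.9 and 11.7 CPM in Nsd2fl/fl and at 11.1, 9.11 and 9.11 CPM in Nsd2ΔIE. Nsd2fl/fl 1 and 3 were above all of Nsd2ΔIE, and Nsd2fl/fl 2 lay below Nsd2ΔIE 1. Its log2 fold change was -0.30 (SE 0.163, 95% interval -0.68 to 0.09, edgeR adjusted p = 0.558), and it was below 0 in each of the 16 alternatives. The FPKM ratio of *Abca1* to *Abcg1* lay between 1.21 and 1.77 in all 6 libraries and differed by 0.09 on the log2 scale (exact permutation p = 1.0, two-sided). Over these 4 ratios of like genes, the Benjamini-Hochberg adjusted p was 1 for each.

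The receptor genes themselves showed little difference. *Nr1h2* (chr7:44549616-44553951), encoding the widely expressed LXRβ, was at 96.3, 104.3 and 81.0 CPM in Nsd2fl/fl and at 90.9, 92.2 and 98.0 CPM in Nsd2ΔIE. All Nsd2ΔIE values lay inside the control range. The 95% interval of the log2 fold change, -0.29 to 0.29, stayed inside the study's fold limit of 0.322 on both sides (edgeR adjusted p = 0.996). Its sign was not stable, with the estimate on the other side of 0 in 11 of the 16 alternatives. *Nr1h3* (chr2:91184061-91202834), encoding LXRα of liver, gut and macrophages, was at 29.4, 22.2 and 28.7 CPM in Nsd2fl/fl and at 30.2, 21.8 and 18.8 CPM in Nsd2ΔIE. The high-*Hoxb13* libraries of both groups were the 3 highest, and the log2 fold change was -0.18 (SE 0.208, 95% interval -0.68 to 0.31, edgeR adjusted p = 0.776). The FPKM ratio of *Nr1h3* to *Nr1h2* was 0.506, 0.354 and 0.587 in the controls and 0.551, 0.393 and 0.318 in Nsd2ΔIE, so *Nr1h2* was the more abundant receptor message in every library. The groups differed by -0.20 in the log2 ratio (exact permutation test, two-sided, p = 0.60).

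**Figure D4:**
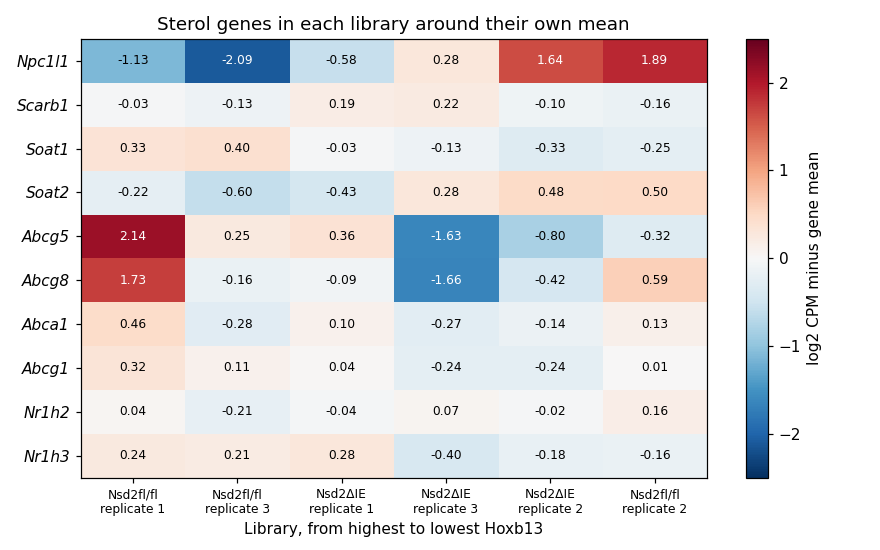
Mean-centred log2 CPM of the 10 genes (rows) in each library (columns, from the highest to the lowest *Hoxb13*), red above and blue below the gene's own mean. *Npc1l1* and *Soat2* are red in the 3 columns on the right and blue in the 3 on the left, and *Abcg5* and *Abcg8* are reddest in Nsd2fl/fl 1 (2.14 and 1.73).

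No member had ranges apart between the genotypes, but 6 of the 10 had ranges apart between the low-*Hoxb13* libraries and the other 3. *Npc1l1* and *Soat2*, 2 of the 10, were higher in all low-*Hoxb13* libraries than in all high ones, where 9.55% of tested genes did the same. *Soat1*, *Abcg5*, *Abcg1* and *Nr1h3*, 4 of the 10, were lower in all of them, beside 12.8% of tested genes. *Npc1l1* held 43, 40 and 15 reads in the low-*Hoxb13* libraries and 4, 1 and 7 in the high ones. It passed the filter on low counts only through the former, so its place among the 6 carries no weight of its own. The split was drawn from these same libraries and holds both genotypes on each side, so the counts of members are a description without a test. Colonocyte markers went both ways along it: of 7, *Car1* and *Krt20* were higher in all low-*Hoxb13* libraries, *Slc26a3*, *Aqp8* and *Slc20a1* were lower in all of them, and *Car4* and *Ceacam20* overlapped. The carbonic anhydrase *Car1* was at 7837, 8057 and 3799 CPM in Nsd2fl/fl 2 and Nsd2ΔIE 2 and 3 against 188.1 to 723.1 CPM in the other 3. The anion exchanger *Slc26a3* was at 298.0, 319.1 and 370.5 CPM against 586.7 to 1061 CPM.

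Lists of other genes of the pathway gave the surroundings. Of 65 genes on 7 lists, 61 were tested, and 3 were higher and 2 lower past the study's threshold, beside 8.05% and 2.21% of all genes. Small differences could change sign with another scaling. Under library totals alone the median over all genes tested went from -0.04 to 0.09, and those of 4 lists went from just below to just above 0 (LXR targets 0.07, LXR partners 0.08, intracellular transport 0.12, lipoprotein receptors 0.07). Among other LXR target genes, 14 of 16 were tested, 6 fitted higher and 8 lower with a median log2 fold change of -0.06, and 1 passed the threshold. It was *Pltp*, the phospholipid transfer protein of HDL, at 37.5, 25.3 and 29.4 CPM in Nsd2fl/fl and 43.7, 38.5 and 40.8 CPM in Nsd2ΔIE. Every Nsd2ΔIE library was above every control, and the log2 fold change was 0.42 (SE 0.162, edgeR adjusted p = 0.423). The call was lost on leaving out any library but Nsd2fl/fl 1, with values between 0.29 and 0.46.

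Among the partners and coregulators of LXR, 7 of 7 were tested, with 3 fitted higher, 4 lower and a median of -0.04. *Rxrg*, the RXR isoform best known from muscle and brain, passed the threshold at a low level, with 0.286, 0.367 and 0.281 CPM in Nsd2fl/fl and 0.858, 1.08 and 1.47 CPM in Nsd2ΔIE. The groups were apart, and the log2 fold change was 1.86 (SE 0.374, edgeR adjusted p = 0.302, DESeq2 adjusted p = 0.0135). *Rxra* and *Rxrb*, the far more abundant partners, had log2 fold changes of 0.10 (SE 0.296) and 0.02 (SE 0.0919). Smooth muscle markers were also higher in Nsd2ΔIE: 5 of 7 were past the threshold, and their summed level was 1356 to 3971 CPM in Nsd2fl/fl and 4945 to 10620 CPM in Nsd2ΔIE. So were markers of enteric neurons and glia, with 6 of 6 past the threshold and sums of 36.3 to 56.6 and 74.5 to 98.2 CPM. Within Nsd2ΔIE both sums rose from library 1 to 3, as *Rxrg* did. Nsd2fl/fl 2, however, had the lowest sums of all and the highest *Rxrg* of the controls. The part of these markers in the value of *Rxrg* was not tested.

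Of the oxysterol enzymes, which make or clear LXR ligands, 5 of 6 were tested and 0 passed the threshold, with 4 fitted higher, 1 lower and a median of 0.39. The nearest were *Hsd3b7*, of bile acid synthesis, at 0.39 (SE 0.173, edgeR adjusted p = 0.461), and *Sult2b1*, a sterol sulfotransferase, at -0.41 (SE 0.195, adjusted p = 0.496). Of 12 genes of intracellular sterol transport and ester hydrolysis, 6 fitted higher, 6 lower and 0 passed, with a median of -0.01. Nearest were *Npc2*, the lysosomal cholesterol carrier, at -0.55 (SE 0.324, edgeR adjusted p = 0.584), and *Osbp*, the oxysterol-binding protein of the Golgi, at -0.16 (SE 0.104, adjusted p = 0.621).

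Among lipoprotein receptors and uptake partners, 8 of 9 were tested, with 3 fitted higher, 5 lower and a median of -0.06, and 1 passed in each direction. *Vldlr*, a receptor for triglyceride-rich particles, was at 25.4, 30.4 and 29.0 CPM in Nsd2fl/fl and at 19.7, 18.9 and 18.0 CPM in Nsd2ΔIE. The groups did not overlap, and the log2 fold change was -0.58 (SE 0.119, edgeR adjusted p = 0.302, DESeq2 adjusted p = 0.0141). *Cd36*, a fatty acid and lipoprotein receptor, was at 16.3, 10.5 and 12.8 CPM in Nsd2fl/fl and at 15.8, 19.1 and 20.3 CPM in Nsd2ΔIE, where Nsd2ΔIE 1 fell below Nsd2fl/fl 1. Its log2 fold change was 0.48 (SE 0.200, edgeR adjusted p = 0.446), and the call was lost without any 1 of Nsd2fl/fl 2 or 3 or Nsd2ΔIE 2 or 3, with values from 0.33 to 0.45. Fat cells are rich in *Cd36*, and adipocyte markers summed to 15.1 to 30.04 CPM in Nsd2fl/fl and 38.3 to 88.3 CPM in Nsd2ΔIE. In Nsd2fl/fl 2 nearly all of the sum was *Cidec* (18.6 CPM) and *Fabp4* (11.4 CPM). *Cidec* was higher in all low-*Hoxb13* libraries than in all high ones, so the sums do not measure fat cells alone. *Adipoq*, which defines fat cells, was at 0.364, 0 and 2.19 CPM in Nsd2fl/fl and 2.57, 3.79 and 10.3 CPM in Nsd2ΔIE. Of 6 adipocyte markers tested, 3 were past the threshold and higher, and their part in the value of *Cd36* was not tested.

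The SREBP2 target genes, which build cholesterol and its receptor when cells run short of it, were mostly fitted higher. Of 11 tested, 9 fitted higher and 2 lower with a median log2 fold change of 0.17, and 0 passed the threshold. Over all genes tested, 43.7% were fitted higher. With library totals alone and on both FPKM scales 11 of 11 were higher, where 65.0%, 66.6% and 67.1% of all genes were. *Lss*, lanosterol synthase, was nearest at 31.0, 25.9 and 40.9 CPM in Nsd2fl/fl and 49.4, 35.2 and 58.6 CPM in Nsd2ΔIE, a log2 fold change of 0.55 (SE 0.238, edgeR adjusted p = 0.457). *Fdft1*, squalene synthase, was at 0.39 (SE 0.298, edgeR adjusted p = 0.67).

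The 4 listed intestinal regulators known to act on *Npc1l1* or the *Abcg5*/*Abcg8* region (*Hnf4a*, *Nr5a2*, *Gata4* and *Gata6*) were all fitted lower, with a median log2 fold change of -0.27, and 3 of 4 with log2(FPKM + 0.1). *Gata6*, at 44.8, 46.4 and 37.7 CPM in Nsd2fl/fl and 37.97, 32.6 and 30.5 CPM in Nsd2ΔIE, was the 1 past the threshold (-0.35, SE 0.135, edgeR adjusted p = 0.419). Nsd2ΔIE 1 stood just above Nsd2fl/fl 3. The call was lost without any 1 of Nsd2fl/fl 1 or 2 or Nsd2ΔIE 2 or 3 (-0.28 to -0.33), and with library totals alone it was -0.23. *Gata4*, mostly a factor of the upper small intestine, was at 0.104, 2.85 and 0.0281 CPM in Nsd2fl/fl and at 0.126, 0.959 and 0.699 CPM in Nsd2ΔIE, above 0.5 CPM in the low-*Hoxb13* libraries only. General epithelial markers had the same direction between the groups: 7 of 7 were fitted lower with a median of -0.32 and 0 past the threshold. Their sum was 9361 to 15090 CPM in Nsd2fl/fl and 8845 to 10440 CPM in Nsd2ΔIE. Their part in the values of *Gata6*, *Abcg5* and *Abcg8* was not tested.

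**Figure D5:**
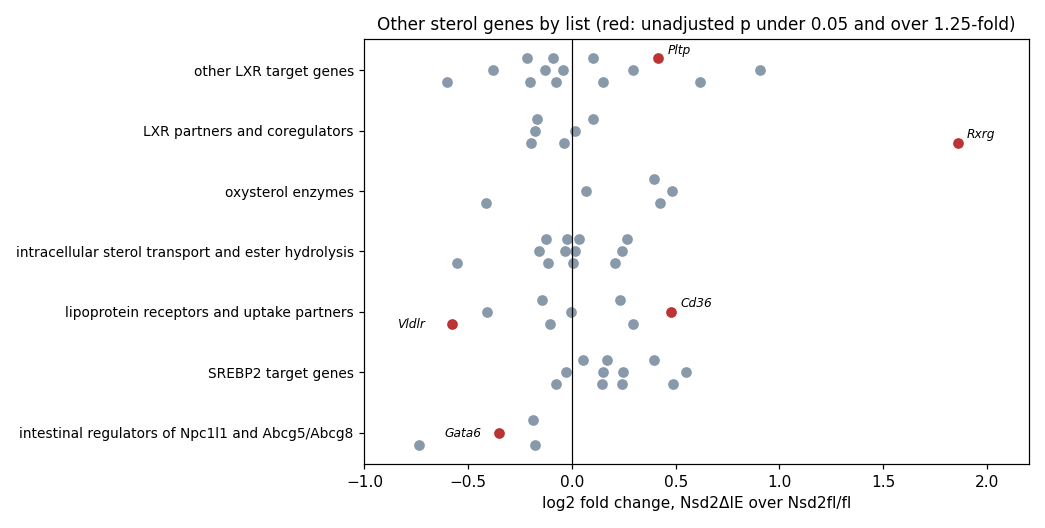
Fitted log2 fold change of Nsd2ΔIE over Nsd2fl/fl for the tested genes of the 7 pathway lists, 1 point per gene, with those past the study's threshold in red and named. *Rxrg* stands far to the right at 1.86, 9 of 11 SREBP2 target genes lie above 0, and all 4 intestinal regulators lie below 0 (3 of 4 with log2(FPKM + 0.1), not drawn).

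Macrophage markers, which matter here since macrophages are rich in *Abca1*, *Abcg1* and *Nr1h3*, summed to 456.3 to 696.1 CPM in Nsd2fl/fl and 543.3 to 690.6 CPM in Nsd2ΔIE, with 1 of 7 past the threshold. That gene was *Cd163*, the haemoglobin scavenger receptor, with a log2 fold change of 0.91 (SE 0.364, edgeR adjusted p = 0.431). Endothelial sums were 149.7 to 187.2 and 162.9 to 186.3 CPM with 0 of 6 past it. Colonocyte markers summed to 3274 to 11760 and 5011 to 10310 CPM, with *Ceacam20* lower as the 1 of 7 past the threshold. Hepatocyte markers, checked because *Abcg5*, *Abcg8* and *Soat2* are also liver genes, summed to 6.58 to 52.4 CPM in Nsd2fl/fl and 7.72 to 46.5 CPM in Nsd2ΔIE. The high end of both ranges was mostly *Ttr*, at 48.0, 1.75 and 39.2 CPM in Nsd2fl/fl and 41.98, 4.01 and 6.68 CPM in Nsd2ΔIE. It was lower in all low-*Hoxb13* libraries, so the sums do not measure hepatocytes alone. Of the 4 hepatocyte markers tested, *Alb* passed the threshold on the lower side and *Cyp2e1* on the higher side, both without overlap between the groups. *Alb*, which defines hepatocytes, was at 2.67, 2.66 and 2.33 CPM in Nsd2fl/fl and at 0.959, 0.353 and 1.59 CPM in Nsd2ΔIE. The log2 fold change was -1.40 (SE 0.514, edgeR adjusted p = 0.401) for *Alb* and 1.86 (SE 0.562, adjusted p = 0.326) for the cytochrome gene *Cyp2e1*, and their part in the values of *Abcg5* and *Abcg8* was not tested.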

How the data were processed

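Total RNA of 6 colon libraries was sequenced, and the authors deposited raw counts per gene symbol and FPKM values per library. The submitters' processing notes name fastp, HISAT2, HTSeq, R 3.2.0 and genome build mm10 without roles. The annotation and use of strand are not given in the sources used here. FPKM was derived from the same counts, since each gene's implied length was a whole number to within 0.0638 bases over 17863 genes. Counts were fitted with edgeR 4.0.16 (R 4.3.3): filterByExpr, TMM, two-sided quasi-likelihood test of Nsd2ΔIE against Nsd2fl/fl without covariates, and Benjamini-Hochberg adjustment over 16347 genes. Values are listed in the order of replicates 1, 2 and 3. CPM values are TMM-scaled, and log2 CPM used a prior count of 2. FPKM fits used limma 3.58.1 on log2(FPKM + 1) or log2(FPKM + 0.1). DESeq2 1.42.0 and limma-voom were alternatives, the latter always with sample quality weights, which let libraries count unequally. Depth was 38041832 to 38604680 counts, so 3 counts are 0.0777 to 0.0789 CPM. Intervals cover counting and library spread, and floors cover counting error only. No pair of libraries was alike within sampling noise (chi-square over degrees of freedom at least 35.5).

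The 10 genes and all lists were chosen with earlier results of these data known, and 1 listed gene is not reported here. Named were all 10, the list genes past the study's threshold or otherwise the 2 of smallest p in a list, and, for members with an SD of log2 CPM over 0.5, the 2 genes of smallest root-mean-square difference (average log2 CPM of at least 1). Markers and *Nsd2* were named as checks, and *Rxra*, *Rxrb*, *Gata4* and the genes set against the *Hoxb13* split after their values were seen. Loci are from GENCODE vM21 and start windows from RefSeq (GRCm38.p6). On simulated counts for this comparison (16080 genes), 90 of 100 genes with a 4-fold and 25 of 100 with a 2-fold change were recovered, with 7 false calls. Changes were put only into genes with an average log2 CPM above 2, and the simulated libraries carried no shared *Hoxb13* split. *Npc1l1*, *Soat2* and *Abcg8* lie below that level, so these rates do not apply to them.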

Additional observations from a re-analysis of the deposited data

How the results depend on the processing

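No member reached an adjusted p under 0.05 in any of the 16 alternatives. Of 160 member values under them, 143 kept their sign. The count of members past the study's threshold and lower, 1 as reported, was 2 with DESeq2, 2 with limma-voom, 0 on either FPKM scale (0.1 or 1 added) and 0 with library totals, and ranged from 0 to 3 with 1 library left out (3 without Nsd2fl/fl 2, 2 without Nsd2ΔIE 1, 0 without Nsd2fl/fl 1, Nsd2ΔIE 2 or Nsd2ΔIE 3). The count of higher members, 0 as reported, ranged from 0 to 1. The pathway genes past it and higher, 3 as reported, were 5 with upper-quartile factors, 6 with library totals, 5 with DESeq2, 5 with log2(FPKM + 1) and 5 with log2(FPKM + 0.1), and 1 to 6 with 1 library left out (6 without Nsd2fl/fl 2, 5 without Nsd2fl/fl 3, 1 without Nsd2ΔIE 3). The lower ones, 2 as reported, were 1, 1, 0 and 1 with upper-quartile factors, library totals, log2(FPKM + 1) and log2(FPKM + 0.1), 4 with limma-voom, 1 with the side of the first principal component as covariate, and 1 to 4 with 1 library left out (4 without Nsd2fl/fl 2 or Nsd2ΔIE 1, 1 without Nsd2ΔIE 2 or 3). Library totals, log2(FPKM + 1) and log2(FPKM + 0.1) moved the median of all genes up by 0.13, 0.10 and 0.14, and the share of threshold calls that were higher from 78.5% to 92.4%, 92.8% and 93.1% (88.7% with upper-quartile factors). Over all genes, DESeq2 gave 471 with an adjusted p under 0.05, against 5 as reported and 3 to 6 in the other alternatives. Past the study's threshold, 675 to 1875 genes were higher (1316 as reported) and 108 to 747 lower (361 as reported) over the alternatives.

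Signs turned for 3 members. *Npc1l1* was at -0.16 with the side of the first principal component as covariate and from -0.72 to 2.88 with 1 library left out. With limma-voom it kept its sign but was at 1.64. *Soat2* was at -0.080 with that covariate and from -0.016 to 0.57 with 1 library left out. *Nr1h2* was at 0.00056 with RLE factors, 0.068 with upper-quartile factors, 0.13 with library totals, 0.050 with limma-voom, 0.13 with both FPKM scales, and from -0.094 to 0.078 with 1 library left out. The *Abcg5* to *Abcg8* log2 ratio difference was -0.071 with 0.1 added to FPKM and ran from -0.36 to 0.31 with 1 library left out, and that of *Abca1* to *Abcg1* from -0.083 to 0.19. The cause of these moves was not tested.

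The labels do not say whether the replicate numbers pair the libraries. Deviations from the group means correlated at 0.501 and 0.643 for numbers 1 and 2 and -0.166 for number 3. Libraries of numbers 1 and 2 lay on the same side of the *Hoxb13* split and those of number 3 on opposite sides. These correlations therefore cannot decide it. With a replicate block, 3 members were past the threshold and lower, 7 pathway genes higher and 4 lower, and *Nr1h2* was at 0.00486. The 3 members were *Abcg5* (-1.41, edgeR adjusted p = 0.309), *Abcg8* (-1.485, adjusted p = 0.309) and *Soat1* (-0.322, adjusted p = 0.350). The spread between libraries was a biological coefficient of variation of 0.311. Counts per library were low for *Npc1l1* (1 to 43), *Soat2* (31 to 75) and *Abcg8* (25 to 262), so counting error adds to their spread.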
